A study of Mus musculus with 10 samples.

Results

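The AP-1 factor genes *Fos*, *Fosb*, *Fosl1*, *Fosl2*, *Jun*, *Junb*, *Jund*, *Atf3*, *Batf* and *Maff* were followed by the open chromatin around them in mouse colon organoids. The 10 genes were taken by name, and for each the peaks lying over the gene body and 20 kb on each side were taken (GRCm38, GENCODE M21 gene models). They were 10 of 18477 protein-coding genes that had a peak in this window in at least 1 library. Peaks of all libraries that shared at least 1 bp were merged into sites, which gave 72 sites near the AP-1 factor genes of 85680 in the genome.

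AP-1 is a family of dimers of basic leucine zipper proteins. FOS-type proteins (FOS, FOSB, FOSL1, FOSL2) pair with JUN-type proteins (JUN, JUNB, JUND) and bind the DNA element TGACTCA, while BATF, ATF3 and the small MAF protein MAFF are related zipper proteins that form dimers of their own kind or with these partners. Many of the genes are immediate-early genes, switched on within minutes of a growth factor or stress signal through MAP kinases, and in gut epithelium AP-1 activity is known to go with proliferation and repair after injury.

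Chromatin was profiled by Omni-ATAC-seq, in which a transposase cuts accessible DNA. Organoids were grown from colonic crypts of WT littermates or of Vil-Cre Ahr fl/fl mice (AHR KO), all C57BL/6, in which Cre under the villin promoter deletes the gene of the ligand-activated aryl hydrocarbon receptor in intestinal epithelium. They were collected in WENR or 4 days after a switch to ENR. WENR is the medium with Wnt3a, EGF, Noggin and R-spondin that keeps them stem-like. ENR is without Wnt3a, which lets them differentiate. WENR also held SB202190, an ALK5 inhibitor and nicotinamide, which ENR did not. The removal of these and that of Wnt3a cannot be told apart. There were 2 libraries of WT WENR, 3 of AHR KO WENR, 3 of WT d4 ENR and 2 of AHR KO d4 ENR, and the p-values given here measure the spread between these libraries. Fewer open cells and less opening per cell cannot be told apart in such bulk samples.

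The lists held 61485 to 65308 peaks in WENR and 33433 to 58359 in d4 ENR. Fragments per library numbered 41686181 to 49126792 in WENR and 30354729 to 36307860 in d4 ENR, without overlap. The part of this depth in the differences between media was not tested. The share of fragment coverage that lay in peaks was 63.0 to 68.6% in WENR, 14.1 to 30.9% in WT d4 ENR and 33.8 to 44.2% in AHR KO d4 ENR, and WT d4 ENR replicate 1 stood lowest in peaks and in this share. Over the 15827 genes with a peak in all 10 libraries, median coverage was 0.51 lower on the log2 scale in d4 ENR. It was 0.15 higher after division by the Mb under peaks in each library, so the direction of a change depended on the scale. Of 8 epithelial markers 7 or 8 had a peak at their start in each library (*Krt20* in 1 library alone). Markers of other cells were open at 0 or 1 of 5 for leukocytes (*Cd68* in 9 libraries, *Ptprc* and *Cd3e* in none), 2 or 3 of 5 for fibroblasts (*Col1a1* and *Pdgfra* in all 10, *Acta2* in 5, *Col3a1* and *Dcn* in none), 0 or 1 of 3 for endothelium (*Kdr* in 5) and 0 to 2 of 3 for neurons and glia (*Elavl4* in 8, *S100b* in 3), and their part in the results was not tested. At *Ahr* itself peaks covered 3277 and 3846 bp in WT WENR against 6155 to 8145 bp in AHR KO WENR, and 1981 to 2632 bp in WT d4 ENR against 4471 and 4712 bp in AHR KO d4 ENR. Peak lists do not show whether the floxed exon was deleted.

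The sequences that the later results turn on are given first. Each is read from the RefSeq GRCm38 genome, 5′ to 3′ on the plus strand, in lower case, with the searched motif in capitals. The AP-1 motif was TGACTCA on either strand (TGAGTCA when read on the other), which stood in 32.4% of all regions. The first 3 stretches are the AP-1 motifs in sites that were open in WENR and lost their peak on differentiation in at least 1 genotype. They lie upstream of *Fosl1* (chr19:5430003-5430103, intergenic), in the site that closed in every d4 ENR library near *Jund* (chr8:70711006-70711106, inside coding sequence of the neighbour *Iqcn* in RefSeq) and nearer to *Jund* (chr8:70702949-70702971, in a non-coding part of the first *Iqcn* exon in RefSeq).

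Fosl1 lost site: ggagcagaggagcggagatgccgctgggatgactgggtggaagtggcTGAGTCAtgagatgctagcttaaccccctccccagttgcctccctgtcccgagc
Jund distal lost site: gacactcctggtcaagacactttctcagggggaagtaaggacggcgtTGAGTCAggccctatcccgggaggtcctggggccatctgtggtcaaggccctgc
Jund proximal lost site: agcatctaTGACTCAcactgggt

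For contrast, the next stretch comes from the site with 4 AP-1 motifs upstream of *Junb* (chr8:84985637-84985777, intergenic), of which 3 lie here and which had a peak in all 10 libraries. It was chosen after its values were seen.

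Junb kept site: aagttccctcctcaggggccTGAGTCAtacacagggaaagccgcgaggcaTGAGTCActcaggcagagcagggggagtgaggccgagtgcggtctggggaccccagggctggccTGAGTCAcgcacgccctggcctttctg

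The stretches just before the starts were searched as well. In the 250 bp before 11 RefSeq starts of 9 of the genes (*Fosl1* was not matched) no AP-1 motif was found, against 4.46% of all 32851 promoters. The cyclic AMP response element TGACGTCA was held by 1, against 1.55%. Only these exact sequences were counted, so variants of either element were missed. Whether the 11 starts differ from all promoters was not tested. The sites over the genes' own starts are wider than these stretches, and 4 of the 10 held an AP-1 motif. The response element was at *Maff* (chr15:79347420-79347519), with the element 29 bp before the start. The stretch upstream of *Fos* (chr12:85473546-85473625), also chosen after its values were seen, holds a CArG box, the element bound by serum response factor, 309 bp before the gene start. CArG boxes were found in 9 of the 72 sites (12.5%), among them the own-start sites of *Fos*, *Fosb* and *Junb*, and in 5.4% of all regions. The 72 sites were wider, with a median of 1303.5 bp against 873 bp, and the part of width was not tested.

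Maff promoter: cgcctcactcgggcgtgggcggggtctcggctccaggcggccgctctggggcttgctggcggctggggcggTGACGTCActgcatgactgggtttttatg
Fos upstream: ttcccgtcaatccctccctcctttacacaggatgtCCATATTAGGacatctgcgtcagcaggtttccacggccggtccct

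The first question was how the chromatin around the AP-1 genes changed when organoids left the stem-like medium. Peaks covered fewer bases in d4 ENR than in WENR at 8 of the 10 genes, with no overlap between the media in either genotype, and at none were more bases covered. Of all genes 59.3% were covered less by this rule and 0.357% more, so the genes of the family followed a change that most genes showed. Each of the 8 had the smallest p that the exact permutation test can give (0.02 over 100 arrangements of the libraries within genotypes). It was 0.0335 after Benjamini-Hochberg adjustment over all genes. Media that do not overlap in either genotype always give this smallest p, here and at the sites below, so it restates the call. Over the 10 genes the median of the log2 ratios, d4 ENR over WENR, was -0.40. Over the 15827 genes with a peak in all 10 libraries it was -0.51.

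**Figure D1:**
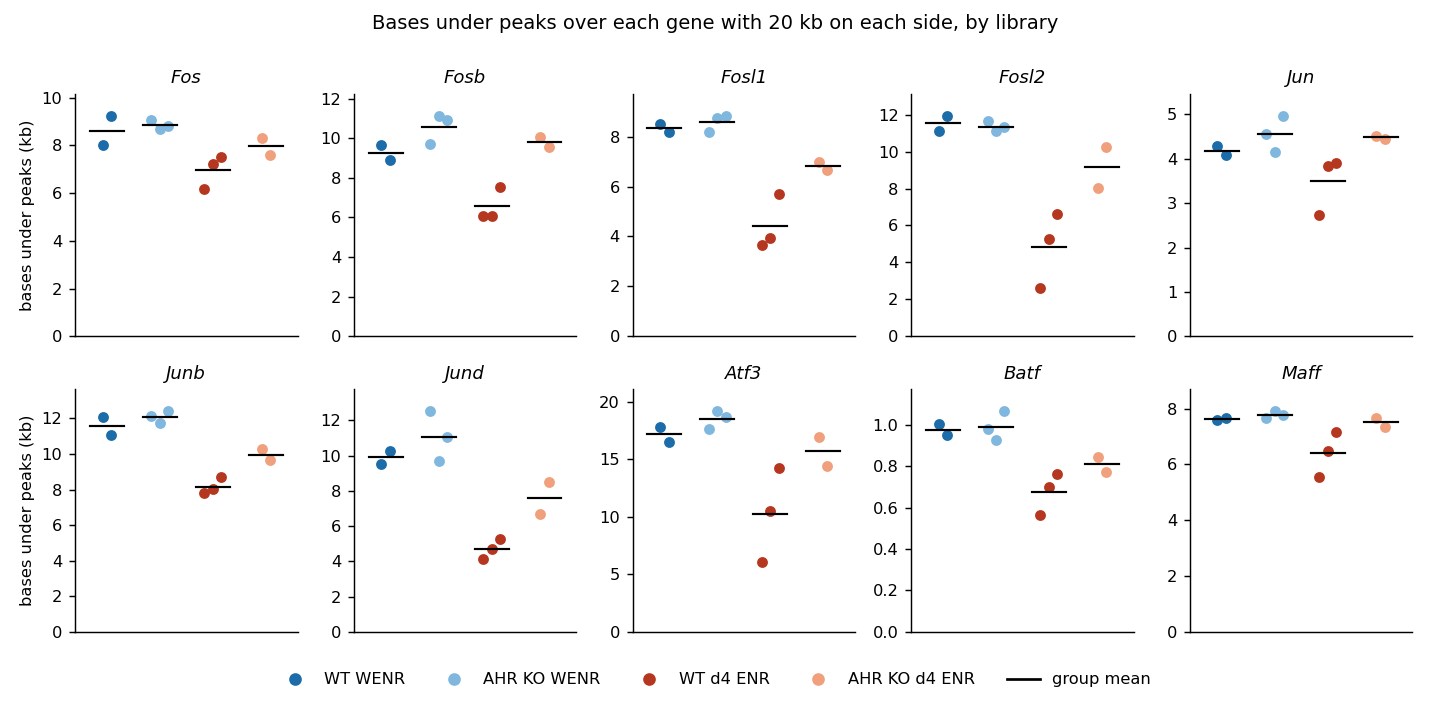
Bases under peaks (kb, vertical axis) over each of the 10 genes with 20 kb on each side, 1 point per library and a line at each group mean. At 8 genes both d4 ENR groups lie below the WENR group of their genotype, and at every gene the 3 WT d4 ENR libraries lie below the 2 AHR KO d4 ENR libraries.

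Among the FOS-type genes, the log2 ratios ran from -0.23 at *Fos* to -0.78 at *Fosl2*. At *Fos* (chr12:85473890-85477273), the founding immediate-early member, peaks covered 7995 and 9236 bp in WT WENR, 9043, 8700 and 8808 bp in AHR KO WENR, 6150, 7213 and 7519 bp in WT d4 ENR and 8324 and 7592 bp in AHR KO d4 ENR. The fall was 1274 bp, a log2 ratio of -0.23. At *Fosb* (chr7:19302696-19310051) coverage was 9645 and 8878 bp in WT WENR, 9690, 11131 and 10909 bp in AHR KO WENR, 6081, 6060 and 7554 bp in WT d4 ENR and 10050 and 9570 bp in AHR KO d4 ENR. Here the WT media were separate but the AHR KO media overlapped, because AHR KO WENR replicate 1 lay below AHR KO d4 ENR replicate 1, and the test did not pass (log2 ratio -0.30, exact permutation p = 0.04, adjusted p = 0.0585). Without AHR KO WENR replicate 1 or AHR KO d4 ENR replicate 1 the media did not overlap at *Fosb*, with differences of -1953 and -1852 bp. *Fosl1* and *Fosl2* encode FRA1 and FRA2, the members without the long transactivation domain of FOS and FOSB. *Fosl1* (chr19:5447547-5455946) had 8510 and 8196 bp in WT WENR, 8190, 8744 and 8834 bp in AHR KO WENR, 3660, 3930 and 5688 bp in WT d4 ENR and 6978 and 6665 bp in AHR KO d4 ENR. Its log2 ratio was -0.62. *Fosl2* (chr5:32135801-32157842) had 11134 and 11934 bp in WT WENR, 11652, 11086 and 11315 bp in AHR KO WENR, 2591, 5274 and 6601 bp in WT d4 ENR and 8052 and 10256 bp in AHR KO d4 ENR. In WT the mean went from 11534 ± 566 bp (SD, n = 2) to 4822 ± 2043 bp (SD, n = 3), and the log2 ratio over both genotypes was -0.78.

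The JUN-type genes spanned the range from the smallest to the largest change of the family. At *Jun* (chr4:95049034-95052222) coverage was 4284 and 4080 bp in WT WENR, 4557, 4149 and 4970 bp in AHR KO WENR, 2727, 3839 and 3903 bp in WT d4 ENR and 4523 and 4457 bp in AHR KO d4 ENR. The AHR KO libraries of both media overlapped and the difference did not pass (log2 ratio -0.14, exact permutation p = 0.2, adjusted p = 0.233). Without AHR KO WENR replicate 2 they were apart, by -483 bp. *Junb* (chr8:84974484-84978718), whose product can restrain JUN, had 12063 and 11090 bp in WT WENR, 12136, 11745 and 12392 bp in AHR KO WENR, 7795, 8010 and 8685 bp in WT d4 ENR and 10298 and 9636 bp in AHR KO d4 ENR, a log2 ratio of -0.39. *Jund* (chr8:70698949-70700616), the member that is expressed most steadily across tissues, had 9531 and 10286 bp in WT WENR, 12501, 9692 and 11029 bp in AHR KO WENR, 4148, 4687 and 5282 bp in WT d4 ENR and 6668 and 8497 bp in AHR KO d4 ENR. Its log2 ratio of -0.81 was the lowest of the 10. *Jun* had 5 sites in its window and *Jund* 8. The annotated gene *Gm11175* overlaps *Jund* on the other strand, and accessibility has no strand.

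Of the related zipper genes, *Atf3*, a stress-induced repressor and activator, had the most bases under peaks. At *Atf3* (chr1:191170296-191218039) the values were 17844 and 16485 bp in WT WENR, 17647, 19155 and 18709 bp in AHR KO WENR, 6045, 10500 and 14233 bp in WT d4 ENR and 16925 and 14438 bp in AHR KO d4 ENR. Its WT d4 ENR libraries had the widest spread in bp of the 10 genes, and the log2 ratio was -0.49. *Batf* (chr12:85686669-85709087), best known from lymphocytes, had a single site, in an intron and not over a start of the gene, with 1002 and 951 bp in WT WENR, 977, 927 and 1064 bp in AHR KO WENR, 566, 698 and 764 bp in WT d4 ENR and 846 and 774 bp in AHR KO d4 ENR. Its log2 ratio was -0.41. *Maff* (chr15:79346621-79359076) had 7576 and 7658 bp in WT WENR, 7674, 7895 and 7780 bp in AHR KO WENR, 5554, 6487 and 7169 bp in WT d4 ENR and 7665 and 7340 bp in AHR KO d4 ENR, with a log2 ratio of -0.15 and a gap of a few bases between the AHR KO media.

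The direction turned when coverage was read as a share of what was open in the same library. Per Mb of peak, *Fos*, *Fosb*, *Jun* and *Maff* were covered more in d4 ENR than in WENR with no overlap in either genotype, against 25.7% of all genes, and no member was covered less, against 12.5%. *Jun* had 65.0 to 73.9 bp per Mb of peak in the WENR libraries and 89.0 to 120 in the d4 ENR libraries (log2 ratio 0.53). *Maff* had 116 to 126 bp per Mb in WENR and 147 to 212 in d4 ENR (0.52), *Fos* 129 to 147 and 152 to 235 (0.44), and *Fosb* 141 to 177 and 184 to 232 (0.37). *Jund* and *Fosl2* had the lowest ratios on this scale too, at -0.14 and -0.15, and neither passed.

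**Figure D2:**
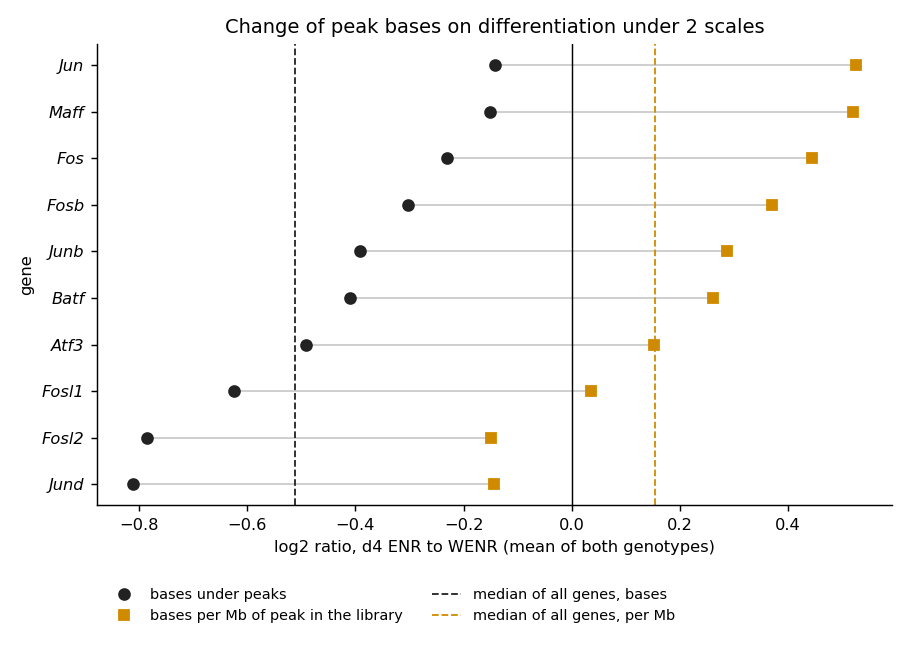
Log2 ratio of d4 ENR to WENR (horizontal axis, mean of both genotypes) for bases under peaks (circles) and for bases per Mb of peak in the library (squares) at each gene. Dashed lines mark the medians of the 15827 genes with a peak in all 10 libraries, -0.51 and 0.15. The circles run from -0.81 at *Jund* to -0.14 at *Jun*, and the squares lie above 0 at 8 genes.

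Next, the 2 genotypes were compared. In d4 ENR both AHR KO libraries exceeded the 3 WT libraries in coverage at 10 of the 10 genes, and by the same rule at 59.5% of all genes, with none of the 10 below, against 0.26% of all genes. The median log2 ratio of AHR KO to WT was 0.47 over the 10 genes. Over the 15827 genes with a peak in all 10 libraries it was 0.44. Whether the family differed from other genes was not tested. The ratio was highest at *Fosl2* (0.92), *Jund* (0.69) and *Fosl1* (0.62), and lowest at *Fos* (0.19) and *Maff* (0.23). With 2 libraries against 3 no gene can reach an exact permutation p under 0.2, which was the value at each member (adjusted p = 0.334). Per Mb of peak *Fosl2* alone lay above in AHR KO without overlap, against 10.7% of all genes, and *Fos*, *Batf* and *Maff* lay below, against 22%, while *Jun* and *Junb* had lower means in AHR KO with overlap.

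In WENR the genotypes were close. *Fosb* and *Maff* were covered more in AHR KO than in WT without overlap, against 12.5% of all genes, and none was covered less, against 10.5%. *Fosb* differed by 1315 bp and *Maff* by 166 bp, and each had an exact permutation p of 0.2. Leaving out WT WENR replicate 1 or AHR KO WENR replicate 2 gave 5 genes, and leaving out WT WENR replicate 2 or AHR KO WENR replicate 1 gave 4. Whether the genotype difference itself changed with medium was tested by an interaction, whose exact permutation p ran from 0.06 at *Fosl2* to 0.50 at *Jun* and from 0.367 to 0.700 after adjustment over all genes.

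Looking inside the windows, the 72 sites comprised 14 in promoters, 11 in exons, 19 in introns and 28 between genes, and 11 lay over the start of another gene, such as *Hook2* beside *Junb* and *Efemp2* beside *Fosl1*. A peak was present in all 10 libraries at 38 sites and in all 5 WENR libraries at 54. Of these 54, 16 were missing from at least 1 d4 ENR library (29.6%), against 46.0% of the 52254 regions in the genome that were open in all WENR libraries. The median share of WENR bases that stayed covered in d4 ENR was 76.4% at these 54 sites and 63.2% at all such regions. The sites were also wider than average, with a median over all 72 of 1303.5 bp against 873 bp, and wide regions were lost less often throughout the genome. At 27 of the 72 sites the covered bases lay lower in d4 ENR without overlap in either genotype, against 30.8% of all regions, and none lay higher, against 0.676%. The exact permutation p was 0.02 at each of the 27, which was 0.0636 after adjustment over all regions and did not pass.

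**Figure D3:**
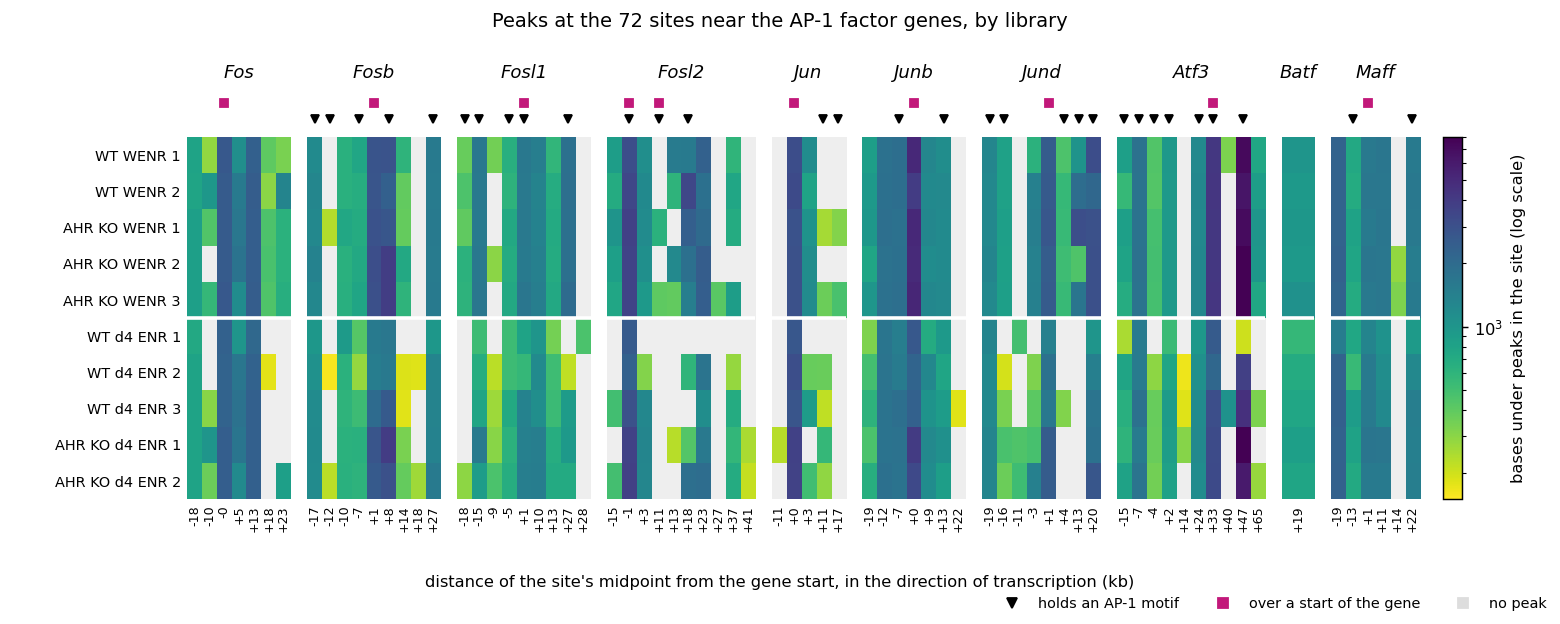
Bases under peaks (colour, log scale) at each of the 72 sites (columns, by distance of the midpoint from the gene start in kb) in each of the 10 libraries (rows), with triangles over sites that hold an AP-1 motif and squares over sites at a start of the gene. Grey cells have no peak. The grey cells gather in the d4 ENR rows, while the columns under squares stay coloured in every row but for 1 *Fosl2* column.

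Few sites were lost outright. A single site was open in each of the 5 WENR libraries and had no peak in any of the 5 in d4 ENR. It lay at chr8:70710152-70714045, 13149 bp past the start of *Jund* and inside *Iqcn*. It was 1 of 54 sites open in all WENR libraries, against 8.95% of such regions in the genome. Peaks covered 1043 and 1917 bp of it in WT WENR and 3060, 447 and 1717 bp in AHR KO WENR. Its fold enrichment was 1.56 to 1.72 in the WENR libraries. The merged site, 3894 bp wide, holds the AP-1 motif printed above as the distal lost site. Whether the peak of each WENR library covered the motif was not checked. Left-out libraries brought this count to 2 (without WT d4 ENR replicate 2 or replicate 3) or 3 (without AHR KO d4 ENR replicate 2).

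In WT, read on its own, 4 of 57 sites open in its WENR libraries were lost, against 19.3% of such regions, namely this one and a site each near *Fos*, *Fosl1* and *Fosl2*. The *Fosl1* site (chr19:5429726-5430350, 17509 bp upstream) had 376 and 454 bp in WT WENR, 394, 618 and 613 bp in AHR KO WENR, none in WT d4 ENR, and 294 bp in 1 of 2 AHR KO d4 ENR libraries. The *Fos* site (chr12:85496517-85498043, intergenic) had 336 and 1334 bp in WT WENR, 632, 634 and 657 bp in AHR KO WENR and 845 bp in 1 AHR KO d4 ENR library. The *Fosl2* site (chr5:32147967-32149681, in an intron) had 1528 and 600 bp in WT WENR, 0, 1228 and 390 bp in AHR KO WENR and 230 bp in 1 AHR KO d4 ENR library. At each of these 3 sites AHR KO kept a peak in 1 of its 2 d4 ENR libraries, so the genotypes were not cleanly apart. Without WT d4 ENR replicate 3 the WT count was 8.

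In AHR KO 3 of 54 sites were lost, against 14.6% of regions open in its WENR libraries. Beside the distal *Jund* site these were a *Fos* site (chr12:85492050-85492525, intergenic), with 404 and 300 bp in WT WENR, 458, 469 and 449 bp in AHR KO WENR and 177 bp in 1 WT d4 ENR library, and the proximal *Jund* site (chr8:70702490-70703047), with 453 and 558 bp in WT WENR, 553, 519 and 546 bp in AHR KO WENR and 317 bp in 1 WT d4 ENR library. The count was 8 without AHR KO d4 ENR replicate 2 and 5 without AHR KO WENR replicate 2. In AHR KO 2 of 8 sites with no peak in its WENR libraries were gained, against 18.5% of such regions, one 40597 bp past the start of *Fosl2* (248 and 214 bp) and one 11056 bp upstream of *Jund* (447 and 519 bp, with 496 bp also in WT d4 ENR replicate 1), and in WT 0 of 13, against 2.52%.

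At the sites over the genes' own starts, 5 of 10 lay lower in covered bases without overlap, and 22 of the 62 other sites did. Over all regions the share was 30.8%. Of the own-start sites *Fosl2* had 2 and *Batf* none, and 9 had a peak in all 10 libraries. In the lists, the pileup of a broad peak is its mean fragment depth and the fold enrichment sets that depth against the local background. A site was given the values of its peak with the highest pileup. At 7 of the 9 sites the fold enrichment lay higher in d4 ENR than in WENR with no overlap in either genotype and at none lower. By the same rule 8.13% of the 28205 regions with a peak in all libraries lay higher and 15% lower, and 9.21% of those over a protein-coding start lay higher. Because wide regions more often did so, 23.7% of start regions of at least 2000 bp lay higher, and the 7 sites were all wider than that. The exact permutation p was 0.02 at each of the 7, which was 0.0863 after adjustment over all 28205 regions, so no single site passed.

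The largest of these differences was at *Junb*. Its fold enrichment was 2.0 and 2.2 in WT WENR, 1.95, 2.11 and 1.96 in AHR KO WENR, 2.50, 3.69 and 3.82 in WT d4 ENR and 2.33 and 2.58 in AHR KO d4 ENR (log2 ratio 0.47). *Fosb* followed with 3.10 and 3.23 in WT WENR, 2.87, 2.95 and 3.05 in AHR KO WENR, 4.42, 4.64 and 5.33 in WT d4 ENR and 3.18 and 3.89 in AHR KO d4 ENR (0.42). At *Fos* it was 2.84 and 2.96, then 2.81, 2.67 and 2.86, in the WENR libraries of WT and AHR KO, and 3.48, 3.83 and 3.46, then 3.19 and 3.19, in d4 ENR (0.25). *Atf3* (0.40), *Jund* (0.28), *Jun* (0.23) and *Fosl2* (0.22) were the other 4. The narrower own-start sites of *Fosl1* (1680 bp) and *Maff* (1704 bp) had log2 ratios of 0.00092 and 0.05, with overlapping media.

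The pileup scaled to 1000000 fragments of the library went the other way at the same sites. It was lower in d4 ENR at 9 of 9, against 83.4% of regions with a peak in all libraries, and higher at none, against 0.167% (exact permutation p = 0.02, adjusted p = 0.0239 at each). At *Jund*, where the highest depth was seen, it was 11.7 and 12 in WT WENR, 10.6, 13.9 and 13.3 in AHR KO WENR, 4.5, 4.08 and 5.09 in WT d4 ENR and 6.17 and 7.01 in AHR KO d4 ENR. At *Fos* it was 7.88 and 7.83 in WT WENR, 7.48, 7.81 and 8.93 in AHR KO WENR, 2.00, 2.49 and 2.97 in WT d4 ENR and 4.06 and 4.41 in AHR KO d4 ENR. Scaled depth thus fell at the starts, while at the 7 sites it lay further above the local background. Fragments were 235 to 255 bp long in the WENR libraries, 156 to 200 bp in WT d4 ENR and 202 to 221 bp in AHR KO d4 ENR. The scaling does not correct for fragment length, and its part in the fall was not tested.

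**Figure D4:**
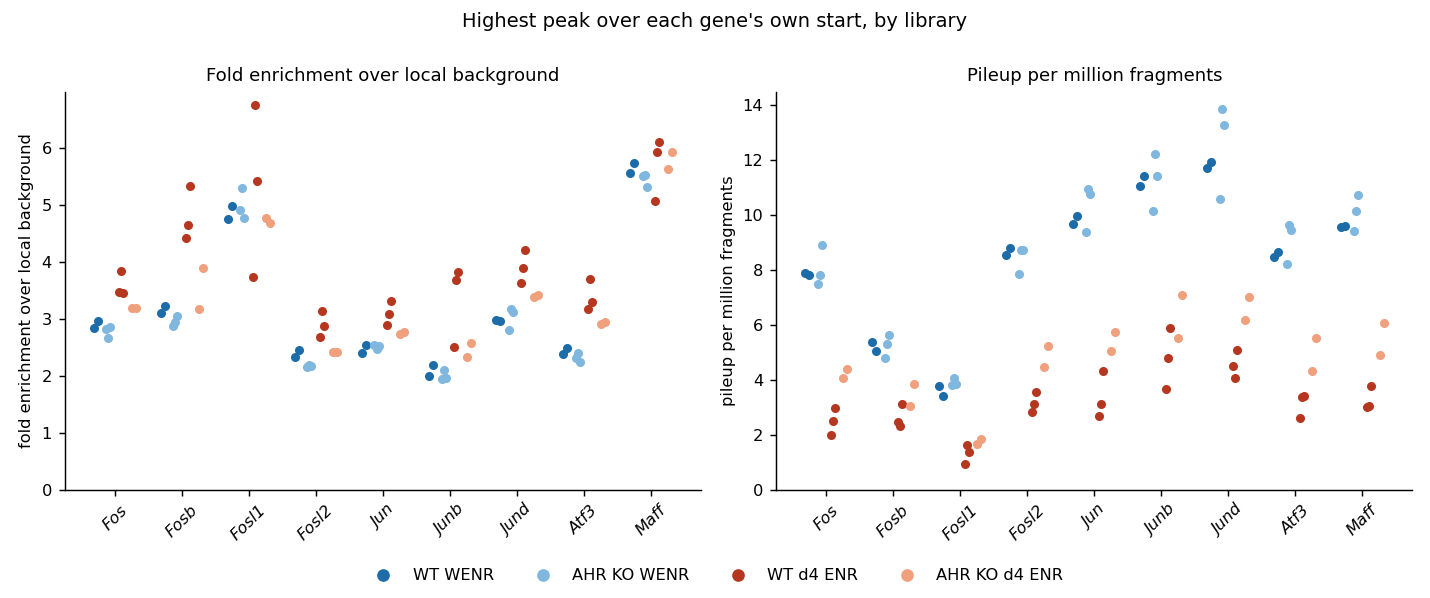
Fold enrichment over local background (left) and pileup scaled to 1000000 fragments (right) of the highest peak at the 9 own-start sites present in all 10 libraries, 1 point per library, coloured by group. On the left the WT d4 ENR points lie above the WENR points at 7 genes, and on the right all d4 ENR points of a genotype lie below its WENR points.

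The genotypes differed in d4 ENR at these starts in both measures. The fold enrichment of AHR KO lay below that of WT at 6 of the 9 sites (*Fos*, *Fosb*, *Fosl2*, *Jun*, *Jund* and *Atf3*), against 3.11% of regions with a peak in all libraries, 4.15% of those over a protein-coding start and 11.1% of wide start regions, and it lay above at none, against 12.5%. The scaled pileup of AHR KO lay above WT at 7 of 9, against 74.1%, and below at none, against 0.0993%. The smallest exact permutation p within a medium is 0.2. The share of coverage in peaks and the fragment length were given above. Both were also higher in the AHR KO d4 ENR libraries than in those of WT d4 ENR. Their part in these differences was not tested.

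Over all 38 sites present in every library, the fold enrichment lay higher in d4 ENR at 11 and lower at 2. Of the 28205 regions with a peak in all libraries, 8.13% lay higher and 15% lower. The own-start sites described above made up 7 of the 11. The 2 lower ones were the intron site of *Batf*, with 7.0 and 7.71 in WT WENR, 7.56, 8.18 and 7.24 in AHR KO WENR, 3.33, 5.37 and 5.65 in WT d4 ENR and 6.07 and 6.92 in AHR KO d4 ENR, and an AP-1 motif site 17115 bp upstream of *Fosb*, with 6.77 and 6.26, then 6.27, 5.97 and 6.29, then 2.79, 4.04 and 3.92, then 5.74 and 5.60 in the same order of groups. Both had higher values in AHR KO than in WT in d4 ENR. They were named after their values were seen.

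The last question was whether the genes' own sites followed what happened to regions with the AP-1 motif in the genome at large. The share of peaks with the motif was 33.8 ± 0.45% (SD, n = 2) in WT WENR, 34.6 ± 0.98% (n = 3) in AHR KO WENR, 24.5 ± 0.69% (n = 3) in WT d4 ENR and 27.8 ± 0.36% (n = 2) in AHR KO d4 ENR. All d4 ENR libraries lay below all WENR libraries (log2 ratio -0.39, exact permutation p = 0.02, the smallest possible). Peaks were narrower in d4 ENR, with mean widths of 669 to 944 bp against 955 to 1029 bp, and motifs per Mb of peak fell by 0.17 on the log2 scale (exact permutation p = 0.04). That ratio was -0.067 among peaks outside promoters (p = 0.32 by the same exact test) and -0.14 without WT d4 ENR replicate 1 (exact permutation p = 0.0667). Over both media a larger share of peaks held the motif in AHR KO (log2 ratio to WT 0.11, exact permutation p = 0.04). In WENR alone the ratio was 0.036, with overlapping genotypes, and in d4 ENR 0.19 (exact permutation p = 0.4 and 0.2). Peaks in d4 ENR were also wider in AHR KO, with mean widths of 858 to 944 bp against 669 to 784 bp in WT. The part of width was not tested. Motifs per Mb were not shown to differ between genotypes (-0.02, exact permutation p = 0.84).

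Of the regions open in all 5 WENR libraries, 11.3% of the 20512 with the motif and 7.41% of the 31742 without it had no peak in any d4 ENR library. The order held in each width class, with 45.5 and 31.1% under 500 bp, 20.6 and 12.3% from 500 up to 1000 bp, 6.79 and 3.42% from 1000 up to 2000 bp and 3.42 and 2.94% from 2000 bp up. The motif stood in 49.7% of the 4678 lost regions, 37.7% of the 28205 kept regions and 16.9% of the 272 gained regions. These shares describe regions and carry no test.

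**Figure D5:**
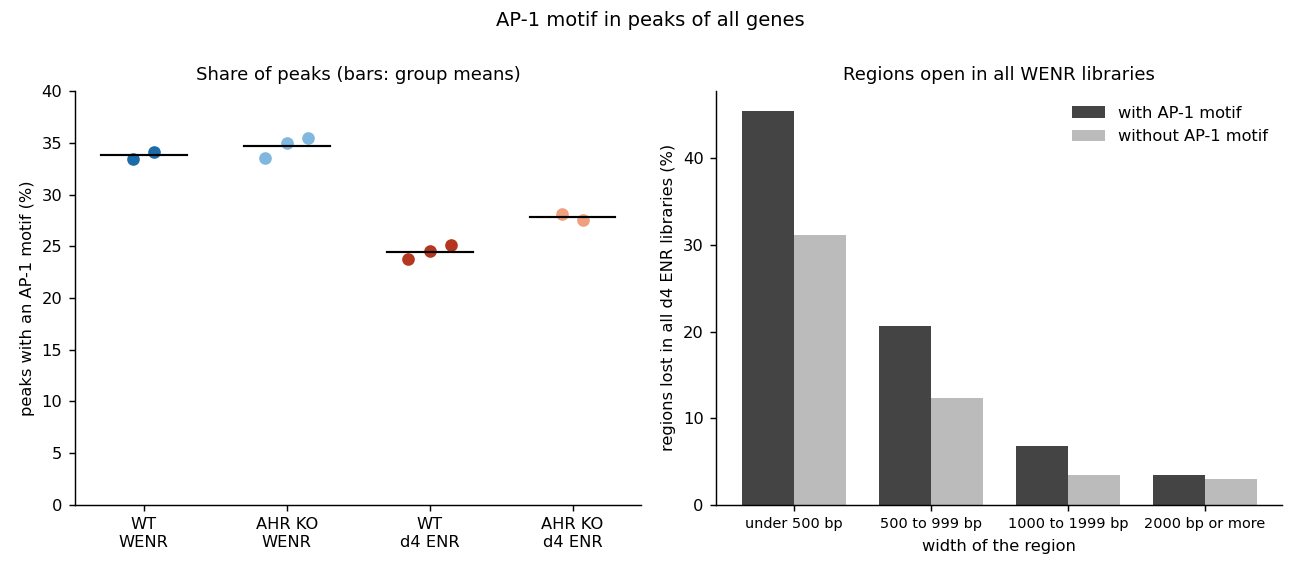
Left, share of peaks that hold an AP-1 motif (%, vertical axis), 1 point per library and a line at each group mean, with 33.5 to 35.4% in WENR and 23.7 to 28.1% in d4 ENR. Right, regions open in all WENR libraries that were lost in all d4 ENR libraries (%), by width and by presence of the motif, where dark bars stand above light bars in each class.

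Near the AP-1 genes the numbers were small. The motif was found in 31 of the 72 sites (43.1%), against 32.4% of all regions. The sites were also wider than all regions, as given above, and the part of width was not tested. By the rule of no peak in any d4 ENR library, 1 of 27 sites with the motif and 0 of 27 without it were lost. By the wider rule of a peak missing in part of the libraries, 7 of the 27 with it were missing from at least 1 d4 ENR library (25.9%), against 9 of the 27 without it (33.3%). Over all regions the shares were 48.1% with and 44.7% without. The median share of WENR bases that stayed covered was 76.1% with and 76.8% without the motif near the AP-1 genes, and 56.8% with and 67.6% without it over all regions. With 27 sites on each side these shares are a description, and the difference from the genome was not tested. *Atf3* had the most motif sites, 7 of 10, followed by *Fosb*, *Fosl1* and *Jund* with 5 each, while none of the sites of *Fos* and *Batf* held the motif.

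Finally, 49 further genes of the pathway were read the same way. Peaks covered fewer bases in d4 ENR at 37 of them (75.5%) and more at none, against the 59.3% and 0.357% of all genes given above. Of 23 other basic leucine zipper genes 15 were lower, of 12 kinase and receptor genes upstream of AP-1 9 were lower, and of 14 immediate-early and feedback genes 13 were lower. The largest falls were at *Bach2*, a zipper repressor that pairs with small MAF proteins, at *Nfe2l3*, a relative of NRF2, and at *Dusp5*, a phosphatase of ERK. *Bach2* had 12618.5 ± 111 bp (SD, n = 2) in WT WENR, 13621 ± 719 bp (n = 3) in AHR KO WENR, 3721 ± 1540 bp (n = 3) in WT d4 ENR and 8312 ± 209 bp (n = 2) in AHR KO d4 ENR. *Nfe2l3* fell by 6050 bp. Coverage of *Dusp5* fell by 5359 bp, and all 3 had lower coverage per Mb of peak as well. Per Mb of peak 4 of the 49 genes were lower, against 12.5% of all genes, and 13 were higher, against 25.7%. On that scale more of the list lay higher than lower, as was so for all genes. Whether the list differed from all genes was not tested.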

How the data were processed

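Omni-ATAC-seq peak lists of 10 libraries were analysed. The authors called broad peaks per library with MACS 2.2.7.1 (GRCm38, broad q of 0.1 per the file headers). Each deposited list gives peak start, end and length, pileup signal (mean depth over a broad peak), −log10 p and −log10 q, and fold enrichment, a ratio to local background. The lists hold no read counts, so no count test was possible. The WENR medium also held inhibitors absent from ENR, whose removal and that of Wnt3a cannot be told apart.

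Covered bases, merged sites (1 bp overlap), fold enrichment and pileup per 1000000 fragments were compared by exact permutation of libraries within genotype or medium, 2-sided, with Benjamini-Hochberg adjustment over all genes or regions. A feature was called where groups did not overlap. Promoters ran from 1000 bp before to 100 bp after a start. All 10 genes were named, with own-start sites, sites lost or gained in a genotype, and the 3 largest falls of the pathway list. Genes, lists and rules were chosen with earlier results of these data known. Whether same-numbered libraries of the 2 media share an organoid line is not stated, and they were treated as unpaired. Their deviations from group means correlated with r from -0.063 to -0.008. Groups of 2 or 3 libraries are too small for this to settle pairing. Scripts (Python 3.11.15, numpy 2.4.6, pandas 2.3.3, pysam 0.24.0) were tested on simulated data. Alternatives were equal list lengths, −log10 q of at least 5, other windows and scales, and each library left out.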

Additional observations from a re-analysis of the deposited data

How the results depend on the processing

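The count of 8 genes covered less in d4 ENR and 0 covered more was 8 or 9 and 0 with each library left out, and 8 and 0 with a replicate block (4 same-numbered pairs, smallest exact p 0.125). It became 3 and 1 with lists of equal length, 5 with 5 kb flanks, 4 over gene bodies, 5 at own starts alone, and 0 and 4 per Mb of peak. The 10 genes covered more in AHR KO in d4 ENR were 10 with each library left out. They became 8 with lists of equal length, 8 at −log10 q of at least 5, 9 with 5 kb flanks and 1 per Mb. The 2 in WENR became 1 with equal lists, 5 kb flanks, per Mb, or pileup-weighted bases, 0 over gene bodies, 4 at −log10 q of at least 5, and 2 to 5 with a library left out.

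Sites lost in both genotypes numbered 1, then 2 with equal lists, 3 at −log10 q of at least 5 and 5 when 50% of a site had to be covered, and 1 to 3 with a library left out. In WT the 4 became 9 at 50% covered and 4 to 8 with a library left out, and in AHR KO the 3 became 5 at −log10 q of at least 5, 7 at 50% covered and 3 to 8 with a library left out. The 7 own-start sites with higher fold enrichment were 7 as means over peaks and with the replicate block, and 7 or 8 with a library left out.

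The motif ratio of -0.17 was -0.15 with equal lists (exact permutation p = 0.06), -0.067 outside promoters (exact p = 0.32), -0.17 with the replicate block (exact p = 0.125) and -0.20 to -0.14 with a library left out (exact p from 0.0333 to 0.1, past 0.05 in all but WT WENR replicate 1 and WT d4 ENR replicate 2).

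Signs turned with equal lists at *Fos* (1068 bp) and *Jun* (187 bp, also at own starts), and per Mb of peak at *Fos* (51.5 bp per Mb), *Fosb* (45.7), *Fosl1* (3.44), *Jun* (30.6), *Junb* (42.5), *Atf3* (31.5), *Batf* (3.18) and *Maff* (54.0). Per Mb, AHR KO minus WT in d4 ENR turned at *Fos* (-49.2 bp per Mb), *Jun* (-13.3), *Junb* (-46.3), *Batf* (-3.86) and *Maff* (-40.8). The peak lists hold only called peaks, so a site without a peak may lie just under the threshold.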
